A study of Mus musculus with 4 samples.

Results

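The genes described here are 45 mouse genes that are transcribed in the S, G2 and M phases of the cell cycle, 45 of the 23635 genes listed over the 4 libraries. They were taken from a list of textbook cell cycle genes, 20 for S phase and 25 for G2 and M. The 45 genes, below called members, were chosen with earlier results of these data known. Counts of members are therefore not those of a list chosen blind to the data. The data are single-cell RNA counts from transplanted tumours of the mouse mammary cancer line Py8119, which was derived from a mammary tumour of a mouse carrying the MMTV-PyMT transgene, with 2 libraries of tumours labelled NC, whose genotype label is control, and 2 of tumours labelled Sema4d-shRNA, in which a short hairpin RNA against Sema4d, a transmembrane semaphorin, was used to knock the gene down. All 4 libraries share the line and the transplantation. The labels give no host strain, host age or time of harvest, and they call the cells tumour cells although whole digested tissue was loaded and host cells are present. Nothing in the labels says that the 2 libraries of a group came from separate animals, so every p-value below measures only the spread between these libraries.

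Cells that enter S phase load the Mcm helicase at origins, supply themselves with deoxynucleotides and copy their DNA, and most genes for these steps are transcribed from late G1 into S under E2F factors. Genes for mitosis, from the kinase Cdk1 and its cyclins to spindle motors, are transcribed later, in G2 and M, mostly through the DREAM and MuvB complexes and the factors B-Myb and FoxM1. In a tumour these genes mark the dividing cells of the malignant clone, and also dividing macrophages and T cells of the host.

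The promoters of the S members and of the G2 and M members hold different motifs, and a few are shown because the 2 sets are described apart below. The promoters were those of RefSeq for GRCm38.p6, from 250 bases before to 50 after each start, and 38 of the 45 members had an entry. Mcm4, Gins2, Gmnn, Ccna2, Aurkb, Pbk and Tpx2 had none. The motifs searched, on both strands, were an E2F site, written GGCGGGAA, TTTGGCGC or TTTCGCGC, a CCAAT box, written CCAAT, and a CHR, the element read by MuvB complexes, written TTTGAA or TTCGAA. The E2F letters were found in 47.1% of the S members with an entry, in 4.76% of the G2 and M members and in 3.39% of all 27025 genes of the promoter table. The CHR letters were found in 71.4% of the G2 and M members, 23.5% of the S members and 21.7% of all genes. CCAAT was found in 85.7% of the G2 and M members, 82.4% of the S members and 41.1% of all genes. The 120 bases before the start of 8 members are printed from 5′ to 3′ on the strand of the gene, with every match in capitals on either strand; where 2 E2F matches overlap, as in Mcm6, the capitals run on.
Mcm6, chr1:128359706-128359825, minus strand: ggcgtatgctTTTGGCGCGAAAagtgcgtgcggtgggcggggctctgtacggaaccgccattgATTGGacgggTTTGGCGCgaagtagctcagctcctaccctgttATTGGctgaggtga
Dtl, chr1:191575545-191575664, minus strand: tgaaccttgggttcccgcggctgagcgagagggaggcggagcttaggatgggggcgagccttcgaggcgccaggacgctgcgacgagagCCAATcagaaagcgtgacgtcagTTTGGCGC
Rrm1, chr7:102441575-102441694, plus strand: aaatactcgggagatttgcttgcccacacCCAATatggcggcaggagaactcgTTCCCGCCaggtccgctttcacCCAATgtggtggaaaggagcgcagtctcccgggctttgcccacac
E2f8, chr7:48881597-48881716, minus strand: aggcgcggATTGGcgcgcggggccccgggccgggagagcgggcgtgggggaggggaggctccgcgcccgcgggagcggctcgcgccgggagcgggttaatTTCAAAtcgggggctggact
Cdk1, chr10:69352913-69353032, minus strand: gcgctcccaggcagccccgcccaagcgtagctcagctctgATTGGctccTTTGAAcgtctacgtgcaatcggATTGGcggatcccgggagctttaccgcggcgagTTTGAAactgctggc
Ube2c, chr2:164769809-164769928, plus strand: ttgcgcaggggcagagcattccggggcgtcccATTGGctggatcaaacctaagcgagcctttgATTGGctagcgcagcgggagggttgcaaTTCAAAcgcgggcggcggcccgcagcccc
Top2a, chr11:99024190-99024309, minus strand: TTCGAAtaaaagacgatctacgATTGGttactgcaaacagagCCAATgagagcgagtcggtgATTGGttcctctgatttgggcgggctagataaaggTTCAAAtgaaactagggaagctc
Prc1, chr7:80294356-80294475, plus strand: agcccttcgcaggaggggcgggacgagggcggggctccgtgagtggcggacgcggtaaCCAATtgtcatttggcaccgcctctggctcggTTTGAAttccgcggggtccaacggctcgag
Mcm6, Dtl and Rrm1 carry E2F letters in this window and no CHR letters. Cdk1, Ube2c, Top2a and Prc1 carry CHR and CCAAT letters and no E2F letters, and E2f8, counted here with the S members for its role, has the second arrangement. Most members do not look like these examples. Of the G2 and M members with an entry, only Cdk1, Ube2c, Top2a, Prc1, Lbr, Mki67 and Kif11 carry CHR letters in the 120 bases. The others, among them Birc5, Nusap1, Anln, Plk1 and Ccnb1, and another listed start of Prc1 carry none there. Of the S members with an entry, only Mcm6, Dtl, Rrm1, Prim1 and a listed start of Uhrf1 carry E2F letters there. The other S members, among them Mcm2, Mcm3 and Pcna, carry none. The percentages above come from the longer window, from 250 bases before to 50 after each start. A match describes these letters only, and a window without a match says nothing about the factor.

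The 4 libraries held 10575 to 13173 cells and 83513906 to 119758159 UMIs (unique molecular identifiers, each standing for 1 captured transcript), with a median of 5690 to 8180 UMIs per cell. Pairs of libraries shared 756 to 3782 cell names, which are running numbers, and 0 cells had identical counts in 2 libraries. Sema4d itself, in tumour-like cells, stood at 6.56 and 7.47 CPM (the gene's UMIs per 1000000 UMIs of the cell class) in NC 1 and NC 2 and at 3.90 and 5.61 CPM in shRNA 1 and shRNA 2. In macrophage-like cells it stood at 70.5 and 64.7 against 66.7 and 78.2 CPM, and in T- and NK-like cells, which are host cells, at 261 and 238 against 172 and 188 CPM. Both shRNA libraries thus lay below both NC libraries in tumour-like and in T- and NK-like cells. Cells were clustered without cell cycle genes and classes were named from markers: tumour-like cells, 5549 to 8804 per library; macrophage- or monocyte-like cells, below called macrophages, 1623 to 3797; and T- and NK-like cells, below called T cells, 260 to 903. Macrophages made up 30.1% and 38.2% of the NC cells and 16.4% and 17.5% of the shRNA cells. In tumour-like cells all 12 tumour markers had UMIs in every library, with a summed level of 1904 to 2192 CPM. A cluster that mixed markers of several classes was left unnamed by a limit set after the data were seen, and it held 2.54% and 0.926% of the NC cells and 0.232% and 0.0730% of the shRNA cells. The summed level of the 14 macrophage markers in tumour-like cells was 298 and 381 CPM in NC against 137 and 143 CPM in shRNA, with none of the 14 at 0; its part in the results below was not tested.

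The share of dividing cells lay in opposite directions in the 2 large classes. A cell was counted as cycling when it had 2 or more UMIs in the sum of Top2a, the topoisomerase that untangles replicated DNA, Mki67, the Ki-67 antigen that coats mitotic chromosomes, Cdk1, the master mitotic kinase, and Birc5 (survivin), a subunit of the chromosomal passenger complex. Each cell was first thinned at random to 2000 UMIs, so that all counted cells had the same depth. Shallower cells were left out, so depth still decided which cells were counted. They made up a larger part of macrophages and T cells than of tumour-like cells, which limits comparisons of shares between classes. Of tumour-like cells, 772 of 5576 (13.8%, exact 95% interval 12.9 to 14.8) were cycling in NC 1 and 613 of 5053 (12.1%, 11.2 to 13.1) in NC 2, against 1325 of 7127 (18.6%, 17.7 to 19.5) in shRNA 1 and 1328 of 8282 (16.03%, 15.3 to 16.8) in shRNA 2. Both shRNA libraries lay above both NC libraries. The means were 13.0% ± 1.21 and 17.3% ± 1.81 (SD, n = 2 each), a ratio of 1.33, and the exact two-sided permutation test gave p = 0.33, which is the smallest that 2 against 2 libraries allow.

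Of macrophages, 281 of 2451 (11.5%, exact 95% interval 10.2 to 12.8) were cycling in NC 1 and 431 of 2972 (14.5%, 13.3 to 15.8) in NC 2, against 121 of 1261 (9.60%, 8.03 to 11.4) in shRNA 1 and 142 of 1674 (8.48%, 7.19 to 9.92) in shRNA 2. Here both shRNA libraries lay below both NC libraries. The means were 13.0% ± 2.15 and 9.04% ± 0.787 (SD, n = 2 each), a ratio of 0.696 (exact permutation p = 0.33). Within a library, the tumour-like share minus the macrophage share was 2.38 and -2.37 percentage points in NC and 8.996 and 7.55 points in shRNA (exact permutation p = 0.33, n = 2 against 2). Intervals cover counting error only.

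**Figure D1:**
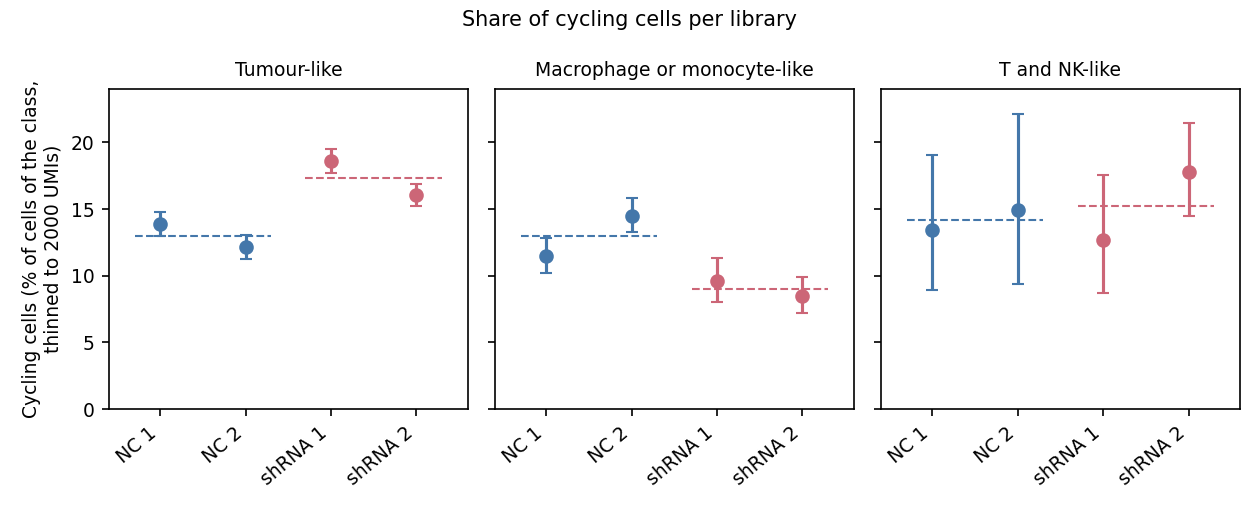
Share of cycling cells (vertical axis, % of the cells of a class after thinning to 2000 UMIs) in each library of the 3 classes; bars are exact 95% intervals and dashed lines are group means. In tumour-like cells the shRNA libraries, at 18.6% and 16.03%, lie above NC at 13.8% and 12.1%; in macrophages they lie below; in T- and NK-like cells the groups overlap.

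T cells gave no separation of the groups. Their cycling share was 13.4% and 14.9% in NC and 12.7% and 17.8% in shRNA, from 20 to 87 cycling cells per library, with means of 14.2% ± 1.08 and 15.2% ± 3.63 (SD, n = 2 each, exact permutation p = 1). The 2 shRNA libraries enclosed the 2 NC libraries, and the log2 ratio of the means was 0.10 with all libraries and -0.16 without shRNA 2.

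Without thinning, with more UMIs counted per cell, the shares in the 2 large classes were higher. They were 34.0% and 29.6% against 41.6% and 36.4% in tumour-like cells, whose median depth was 9370 and 7988 UMIs in NC and 9779 and 8762 in shRNA. In macrophages they were 17.1% and 19.6% against 13.7% and 13.8%, at medians of 4375.5 and 3895 against 3804 and 3843.5 UMIs. In T cells they were 12.5% and 12.7% against 12.1% and 15.4%, at medians of 2007.5 to 2108 UMIs. Thinning to 2000 left out 348 to 535 tumour-like cells, 362 to 825 macrophages and 126 to 414 T cells per library. Neutrophil-like cells, which do not divide in tissue, served as background. After thinning to 1000 UMIs, 0 of 42, 0 of 22, 0 of 12 and 0 of 7 of them were cycling, with upper exact limits of 8.41%, 15.4%, 26.5% and 40.96% and medians of 1136 to 1318.5 UMIs before thinning. Without thinning 1 of the 42 in NC 1 (2.38%, exact 95% interval 0.0603 to 12.6) was cycling and 0 in the other libraries, and of the 4 in NC 1 that reached 2000 UMIs 1 was cycling (25%, 0.631 to 80.6). Thinned to 1000 UMIs, the share was 6.82% and 6.15% against 9.35% and 7.91% in tumour-like cells, and 5.73% and 7.69% against 4.56% and 3.21% in macrophages.

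The makeup of the tumour-like class also differed between the groups. Clusters 1 and 2 held 27.6% and 35.7%, and 29.2% and 23.97%, of the NC tumour-like cells, and 7.66% and 6.50%, and 3.59% and 8.74%, of the shRNA ones. Cluster 3 held 4.72% and 6.85% against 34.9% and 17.95%, and cluster 7 held 3.23% and 4.95% against 28.1% and 23.4%. Among the 9 tumour-like clusters with at least 50 cells in every library, the cycling share of both shRNA libraries was above both NC libraries in 4, below in 0 and overlapping in 5. With every library given the same mixture of these clusters, the share was 16.9% and 13.7% in NC and 20.3% and 13.4% in shRNA, so the groups then overlapped. Cluster 5 among them had Cdc20, Cenpf, Ube2c and Birc5 among its top genes. Its cycling share was 42.5% and 32.4% in NC and 44.1% and 51.0% in shRNA. It held 1.56% and 2.08% of the NC tumour-like cells and 1.78% and 2.46% of the shRNA ones. An equal mixture thus also held equal a cluster marked by cycle genes, and its part in the overlap was not tested. In the 2 macrophage clusters with at least 50 cells in every library, both shRNA libraries were below both NC libraries. The macrophage share at equal mixture was 12.5% and 15.5% against 11.2% and 9.05%.

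Levels over all cells of a class lay, like the shares, above NC in tumour-like cells and below NC in macrophages, though no single member passed the test in either. In tumour-like cells the log2 change from NC to shRNA was above 0 for 44 of the 45 members, against 51% of the 14660 genes tested, with a median of 0.27 against 0.0049 for all genes. By edgeR's quasi-likelihood test 0 members passed an adjusted p of 0.05, as did 0.389% of all genes. An unadjusted p under 0.05 was found for 21 of 45, against 12.4% of all genes. DESeq2 called 3, and the share of all genes that DESeq2 called is not given for either class. In 21 members both shRNA libraries lay above both NC libraries, against 14.2% of all genes. In macrophages the change was below 0 for 42 of 45 members, against 49.2% of the 12500 genes tested, with a median of -0.34 against 0.0045. There edgeR called 0 members, against 0.176% of all genes; 25 had an unadjusted p under 0.05 (9.74% of all genes), DESeq2 called 1, and in 35 both shRNA libraries lay below both NC libraries (30.6% of all genes). With 1 library left out, the median over the members was 0.15 to 0.34 in tumour-like cells and -0.43 to -0.25 in macrophages. Summed over the members, the level was 2070 and 1833 CPM in NC and 2405 and 2063 CPM in shRNA tumour-like cells, which overlap. In macrophages the sum was 1355 and 1543 CPM in NC and 1129 and 1082 CPM in shRNA, which do not.

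The difference between the 2 classes was tested directly, in 1 fit with a term for each library, as the log2 change in macrophages minus that in tumour-like cells. Of the 45 members 25 passed edgeR's adjusted p of 0.05, all of them negative, against 3.04% of the 15180 genes called in either direction and 0.711% called negative. The median over the members was -0.57 and over all genes 0.03. The 25 were 7 of 10 licensing and helicase genes, 7 of 10 fork, nucleotide and S-phase control genes, 4 of 12 kinase, cyclin and degradation genes and 7 of 13 chromosome, spindle and cytokinesis genes. Of these, 7 were called in each of the 4 fits that left out 1 library: Rrm2 (chr12:24708241-24714146), Tyms (chr5:30058202-30073617), Dtl (chr1:191537356-191575544), Hells (chr19:38930915-38971051), E2f8 (chr7:48866429-48881596), Top2a (chr11:98992943-99024189) and Nusap1 (chr2:119618298-119651244, all on GRCm38). With 1 library left out the number of members called went up or down, and it fell most without NC 2. The share of all genes called in those fits is not given. Such calls, those of these 7 genes included, therefore cannot tell a difference particular to the members from one over all genes.

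**Figure D2:**
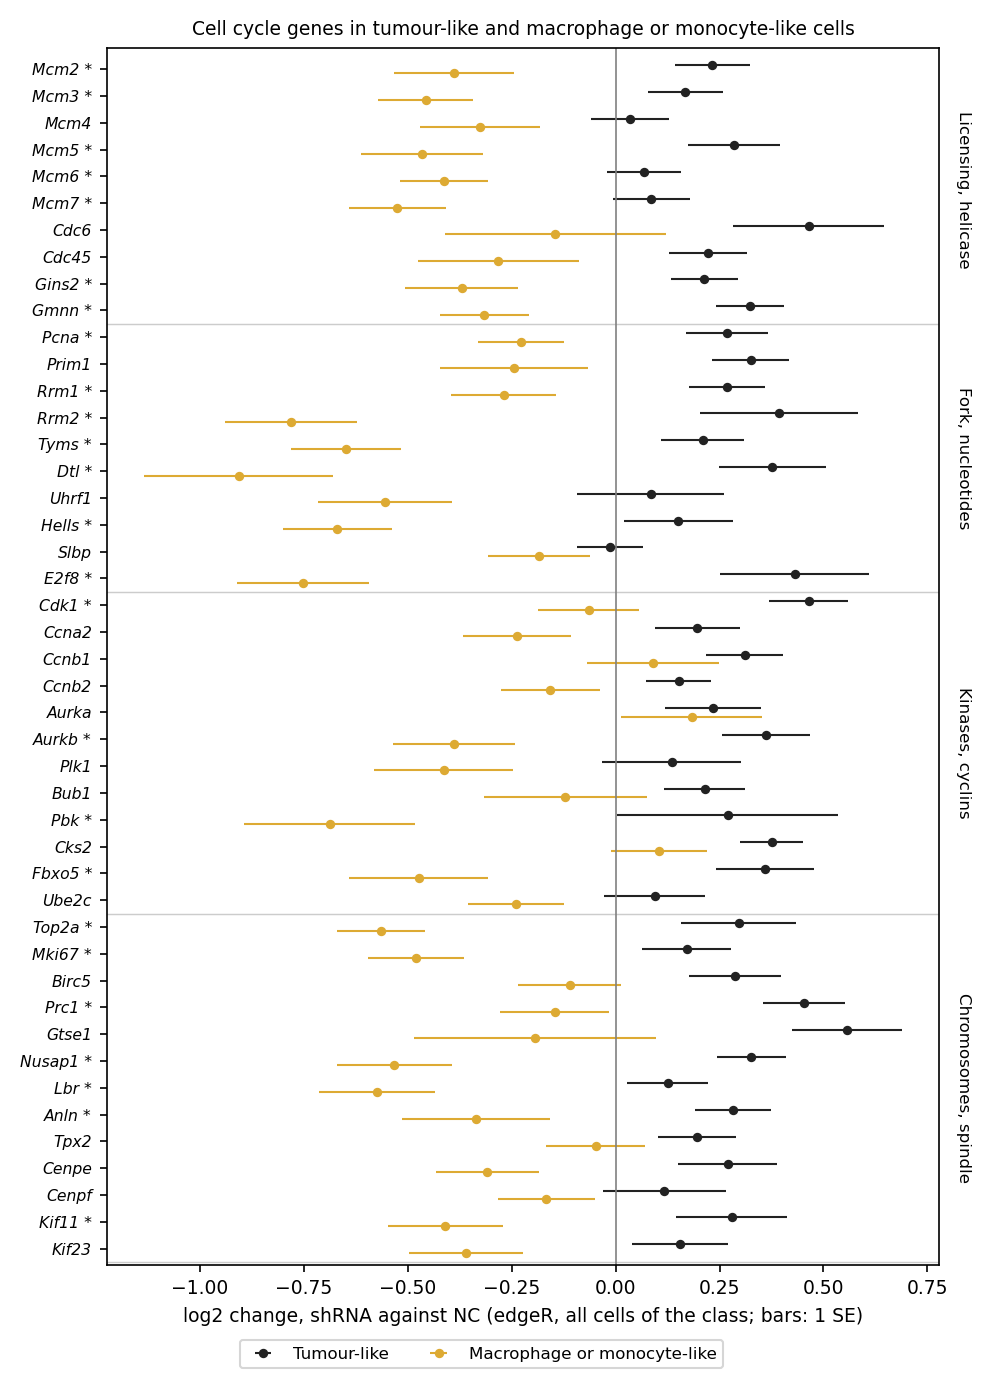
log2 change from NC to shRNA (horizontal axis, with bars of 1 SE) of the 45 members over all tumour-like cells (black) and all macrophages (yellow), grouped by role; stars mark the 25 members whose change differed between the classes. Nearly all black points lie right of 0 and nearly all yellow points left of it.

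Among the genes that license origins and form the helicase, all 10 had a positive change in tumour-like cells (median 0.22) and a negative one in macrophages (median -0.38). Mcm2, a subunit of the helicase ring, stood at 40.5 and 37.5 CPM in NC and 47.6 and 41.5 CPM in shRNA tumour-like cells, and at 23.8 and 26.4 against 20.1 and 16.5 CPM in macrophages. Mcm3 stood at 33.8 and 30.3 against 36.7 and 33.2 CPM in tumour-like cells, while macrophages held 37.1 and 39.6 against 27.6 and 25.6 CPM. For Mcm5 the values were 23.1 and 20.1 against 27.9 and 23.3 CPM, and in macrophages 18.8 and 20.2 against 11.7 and 15.1 CPM. In these 3 ring subunits the macrophage groups were apart, and the tumour-like groups were apart for Mcm2 and Mcm5. Mcm6 gave 59.2 and 51.7 against 57.1 and 55.7 CPM in tumour-like cells, and 40.9 and 42.9 against 28.7 and 31.2 CPM in macrophages. Mcm7 gave 72.4 and 63.0 against 72.6 and 66.8 CPM, and 33.0 and 34.8 against 23.1 and 21.7 CPM. In both the tumour-like groups overlapped while the macrophage groups did not. Mcm4, the ring subunit that was not called, gave 22.6 and 22.4 against 24.1 and 20.6 CPM in tumour-like cells and 16.4 and 18.9 against 13.4 and 13.4 CPM in macrophages.

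Gins2, a subunit of the GINS complex that joins the ring to form the active helicase, stood at 29.7 and 30.5 against 35.2 and 32.4 CPM in tumour-like cells, while macrophages held 22.0 and 26.4 against 17.0 and 18.6 CPM. Gmnn (geminin), which blocks a second round of licensing, stood at 30.5 and 30.0 against 38.4 and 35.1 CPM, and in macrophages at 45.5 and 50.3 against 36.8 and 36.4 CPM. Both genes were higher in both shRNA libraries of tumour-like cells and lower in both of macrophages. The difference between the classes ranged from -0.73 for Mcm5 (SE 0.17, edgeR adjusted p = 0.0226) to -0.47 for Mcm6 (SE 0.13, edgeR adjusted p = 0.0451) among the 7 called genes of this role. Cdc6, the helicase loader, and Cdc45, a helicase partner, had differences of -0.63 and -0.48 with edgeR adjusted p of 0.373 and 0.275.

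The genes of the fork, of nucleotide supply and of S-phase control held the most negative values in macrophages, with a median change of -0.60 and all 10 below 0, against a median of 0.27 in tumour-like cells with 9 above 0. Rrm2 is the small subunit of ribonucleotide reductase, which makes deoxynucleotides. Rrm2 stood at 19.7 and 20.3 CPM in NC macrophages and 12.4 and 9.82 CPM in shRNA macrophages. In tumour-like cells it stood at 17.95 and 15.1 against 25.1 and 17.1 CPM. The macrophage groups were well apart and the tumour-like groups overlapped. The difference between the classes was -1.14 (SE 0.16, edgeR adjusted p = 1.07e-04). Rrm1, the large subunit, stood at 45.4 and 40.4 against 52.6 and 47.6 CPM in tumour-like cells, while macrophages held 32.6 and 37.1 against 29.1 and 25.9 CPM, a difference of -0.52 (SE 0.14, edgeR adjusted p = 0.0397).

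Tyms, thymidylate synthase, which makes the thymidine nucleotide, stood at 55.5 and 49.6 against 63.9 and 54.0 CPM in tumour-like cells, while macrophages held 25.9 and 28.9 against 15.1 and 18.02 CPM. Its difference between the classes was -0.83 (SE 0.15, edgeR adjusted p = 0.00258). Dtl, the adaptor that marks the licensing factor Cdt1 for degradation in S phase, stood at 8.91 and 7.004 against 9.98 and 10.1 CPM, and in macrophages at 5.51 and 5.66 against 2.70 and 2.96 CPM. Dtl was thus apart in both classes and in opposite directions. Its difference was the most negative of the 45, at -1.28 (SE 0.25, edgeR adjusted p = 0.00315). Hells, a chromatin remodeller needed for DNA methylation, stood at 54.7 and 44.9 against 59.6 and 47.8 CPM in tumour-like cells, while macrophages held 22.9 and 22.3 against 12.9 and 14.1 CPM. E2f8, an atypical E2F that represses S-phase genes, stood at 8.24 and 6.39 against 11.1 and 8.11 CPM, and in macrophages at 12.7 and 13.1 against 6.81 and 7.72 CPM. In both genes only the macrophage groups were apart, and the differences were -0.79 for Hells (SE 0.15, edgeR adjusted p = 0.00267) and -1.15 for E2f8 (SE 0.21, edgeR adjusted p = 0.00223).

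Pcna, the sliding clamp of the polymerases, stood at 46.0 and 46.4 against 59.5 and 48.6 CPM in tumour-like cells, while macrophages held 61.2 and 65.7 against 52.3 and 50.8 CPM, a difference of -0.47 (SE 0.11, edgeR adjusted p = 0.0217). Its groups were apart in both classes. Slbp, which binds the stem-loop of replication-dependent histone mRNAs, had the lowest change in tumour-like cells, -0.01, with 49.5 and 52.3 against 50.5 and 47.3 CPM. In macrophages it stood at 35.5 and 43.3 against 32.6 and 33.4 CPM, and its difference of -0.15 was not called (edgeR adjusted p = 0.699). Prim1, the catalytic primase subunit, and Uhrf1, the reader of hemimethylated DNA, had differences of -0.54 and -0.60 with edgeR adjusted p of 0.149 and 0.488.

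The mitotic kinases, cyclins and degradation factors were the role with the fewest calls. In tumour-like cells all 12 changes were above 0 (median 0.25), and in macrophages 9 of 12 were below 0 (median -0.20). Cdk1, which also helped to define cycling cells, stood at 81.2 and 79.5 against 118 and 97.5 CPM in tumour-like cells, one of the 2 lowest adjusted p-values of the members there (log2 change 0.46, SE 0.09, edgeR adjusted p = 0.0935). Cks2, a small Cdk-binding subunit, shared that value, with 126 and 131 against 166 and 156 CPM (log2 change 0.38, SE 0.08, edgeR adjusted p = 0.0935). In macrophages neither was apart: Cdk1 stood at 38.4 and 47.4 against 38.3 and 39.8 CPM, and Cks2 at 47.6 and 56.3 against 53.9 and 52.4 CPM. The class difference was -0.50 for Cdk1 (SE 0.13, edgeR adjusted p = 0.0382) and -0.25 for Cks2 (edgeR adjusted p = 0.35).

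Aurkb, the kinase of the chromosomal passenger complex, stood at 20.1 and 17.99 against 25.8 and 21.7 CPM in tumour-like cells, while macrophages held 15.8 and 18.4 against 12.6 and 12.3 CPM. Fbxo5 (Emi1), an inhibitor of the anaphase-promoting complex that keeps S and G2 cyclins stable, stood at 17.3 and 15.9 against 23.1 and 18.3 CPM, and at 13.2 and 16.2 against 10.7 and 9.53 CPM. Pbk, a mitotic kinase, stood at 27.5 and 21.2 against 35.1 and 22.1 CPM, and at 10.5 and 12.2 against 7.98 and 5.53 CPM. All 3 were apart in macrophages, and Aurkb and Fbxo5 also in tumour-like cells, with class differences of -0.72, -0.80 and -0.93 and edgeR adjusted p of 0.013, 0.0102 and 0.0145. Aurka, the kinase of the spindle poles, had the highest change in macrophages, 0.18, with 10.6 and 12.2 against 13.6 and 11.2 CPM there and 22.1 and 18.9 against 25.5 and 21.3 CPM in tumour-like cells, which overlap in both. Ube2c, the ubiquitin-conjugating enzyme of the anaphase-promoting complex, stood at 187 and 150.4 against 189 and 161 CPM in tumour-like cells, while macrophages held 84.4 and 102 against 74.3 and 76.2 CPM. Neither Aurka nor Ube2c was called, with class differences of -0.04 and -0.31. Ccna2, Ccnb1, Ccnb2, Plk1 and Bub1 were not called either, with differences from -0.56 for Plk1 to -0.20 for Ccnb1.

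The chromosome, spindle and cytokinesis genes all had changes above 0 in tumour-like cells (median 0.28) and below 0 in macrophages (median -0.34). Top2a stood at 174 and 139 against 206 and 167 CPM in tumour-like cells, which overlap, and at 131 and 144 against 90.4 and 86.7 CPM in macrophages, the lowest adjusted p of any member in macrophages (log2 change -0.56, SE 0.11, edgeR adjusted p = 0.0875). Its class difference was -0.84 (SE 0.14, edgeR adjusted p = 0.00324). Mki67 stood at 51.1 and 42.4 against 54.2 and 48.0 CPM, and in macrophages at 80.0 and 94.1 against 61.3 and 57.4 CPM, a difference of -0.63 (SE 0.15, edgeR adjusted p = 0.0299). For both, the groups were apart in macrophages alone. Birc5 was not called, at 131 and 113 against 159 and 131 CPM in tumour-like cells and 66.7 and 80.9 against 68.2 and 61.8 CPM in macrophages.

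Nusap1, which binds spindle microtubules near chromosomes, stood at 25.6 and 24.4 against 30.1 and 30.7 CPM in tumour-like cells, while macrophages held 23.8 and 27.4 against 15.1 and 18.5 CPM. The groups were apart in both classes and in opposite directions, and the difference was -0.84 (SE 0.15, edgeR adjusted p = 0.00103). Prc1, which bundles the microtubules of the midzone, stood at 52.1 and 47.8 against 72.2 and 60.6 CPM, and in macrophages at 34.2 and 42.8 against 34.2 and 32.03 CPM. Gtse1, a microtubule-binding protein present in S and G2, had the highest change in tumour-like cells, 0.56 (SE 0.13, edgeR adjusted p = 0.139), with 7.21 and 5.69 against 9.58 and 8.89 CPM. In macrophages Gtse1 stood at 3.35 and 4.92 against 4.11 and 2.86 CPM. Prc1 and Gtse1 were therefore apart in tumour-like cells alone, and of them Prc1 was called (-0.57, SE 0.14, edgeR adjusted p = 0.0322).

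Lbr, the lamin B receptor of the inner nuclear membrane, stood at 15.9 and 14.1 against 16.2 and 15.5 CPM in tumour-like cells, while macrophages held 22.1 and 24.7 against 13.4 and 16.4 CPM. Anln (anillin), a scaffold of the contractile ring, stood at 55.9 and 53.0 against 69.2 and 59.4 CPM, and at 20.2 and 21.7 against 18.7 and 13.1 CPM. Kif11, the motor that pushes spindle poles apart, stood at 17.3 and 14.3 against 20.7 and 16.5 CPM, and at 19.4 and 21.3 against 15.1 and 14.0 CPM. All 3 were apart in macrophages, and Anln also in tumour-like cells, with class differences of -0.68, -0.61 and -0.67. Tpx2, Cenpe, Cenpf and Kif23 were not called, with differences from -0.56 for Cenpe to -0.23 for Tpx2.

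**Figure D3:**
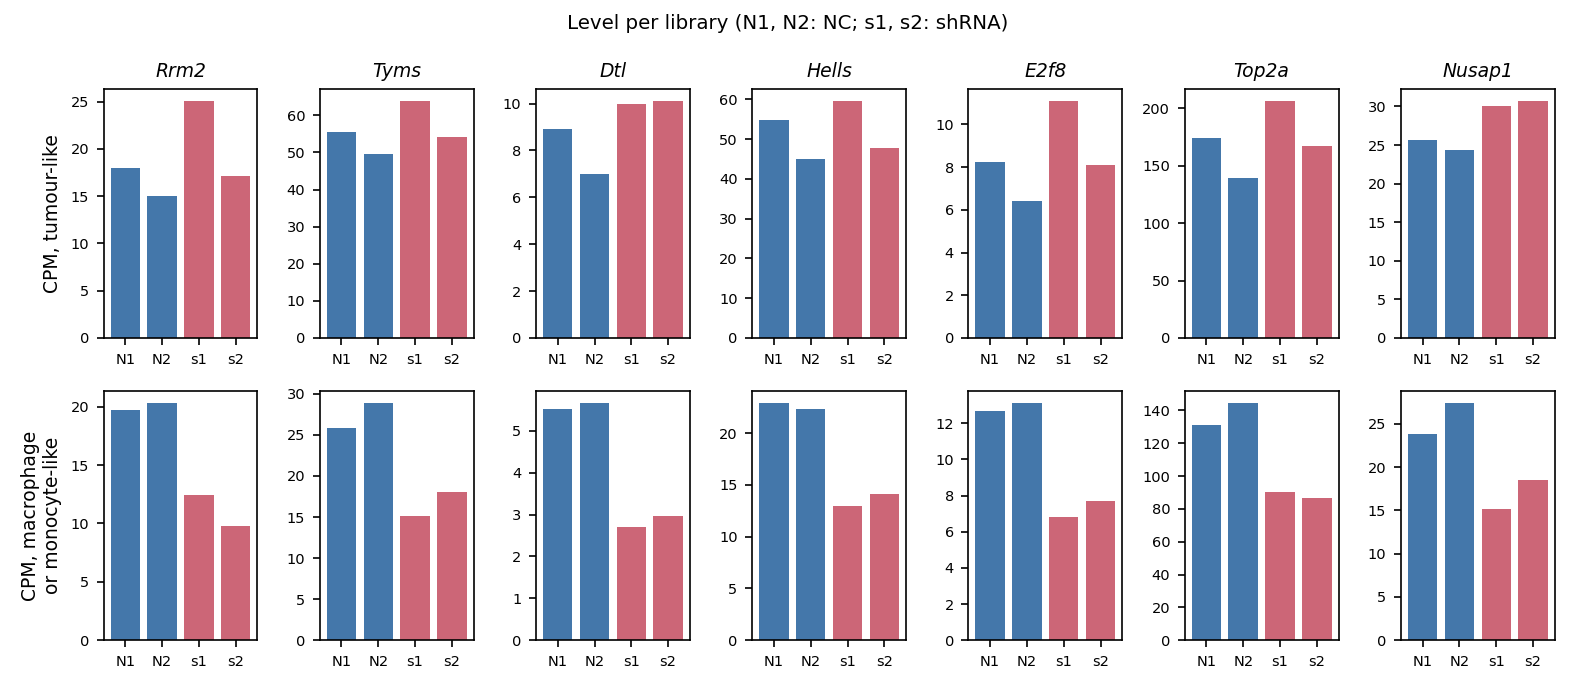
Level in CPM (vertical axes, bars from 0) of the 7 genes whose class difference was called in every fit that left out 1 library, for each library, over all tumour-like cells (top) and all macrophages (bottom). In macrophages both shRNA bars are below both NC bars for every gene, as for Rrm2 at 12.4 and 9.82 against 19.7 and 20.3 CPM.

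A level over all cells can differ because more or fewer cells cycle or because cycling and non-cycling cells each carry a different level, and the 2 parts were computed separately for the 41 members that did not define cycling cells. Cycling cells, taken on all their UMIs, held a median of 90.0% of a member's UMIs in tumour-like cells (66.0% to 97.1%). In macrophages the median was 74.6% (42.0% to 91.3%). By library, the same cells held 44.99% to 58.8% of all UMIs of tumour-like cells and 22.1% to 27.9% of those of macrophages. With cycling cells chosen after thinning, the medians were 51.9% in tumour-like cells and 51.6% in macrophages. The height of the medians and the gap between the classes thus depended on how cycling cells were chosen. In tumour-like cells the median log2 change was 0.19 in all, 0.15 when only the share of UMIs in cycling cells was let differ, and 0.06 when only the levels inside and outside them were. In macrophages the median was -0.40 in all, -0.18 from the share and -0.22 from the levels. In macrophages the phases stood apart in these medians. For the 20 S members the share gave -0.14 and the levels -0.36, with 0 of 20 above 0 for the levels. For the 21 G2 and M members the share gave -0.23 and the levels -0.08, with 8 of 21 above 0. In tumour-like cells too, the levels gave more for S than for G2 and M members, and the share gave less. The share and the levels gave 0.113 and 0.0973 for S members and 0.168 and 0.0536 for G2 and M members. Unlike in macrophages, the share part was thus the larger for S members. With cycling cells chosen after thinning that order changed, to 0.0951 from the share and 0.113 from the levels. The genes that defined cycling cells all belong to the G2 and M list. S-phase cells with few of their UMIs counted as non-cycling, so the split does not treat the phases alike. Its part in the difference between the phases was not tested.

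Single members ran from one end to the other. In macrophages the level alone gave -0.80 for Dtl, -0.63 for E2f8, -0.61 for Rrm2, -0.61 for Hells and -0.55 for Tyms, while the share alone gave -0.17 to -0.24 for Dtl, E2f8 and Rrm2. Among G2 and M members Lbr and Pbk came nearest, at -0.54 and -0.51 from the level. At the other end the level alone gave 0.35 for Aurka, 0.25 for Ccnb1 and 0.16 for Cks2, with shares of -0.22, -0.24 and -0.15. In tumour-like cells the level alone was highest for Gtse1 (0.36), Cdc6 (0.28) and E2f8 (0.24) and lowest for Slbp, Ube2c and Mcm4 (-0.12, -0.11 and -0.11).

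**Figure D4:**
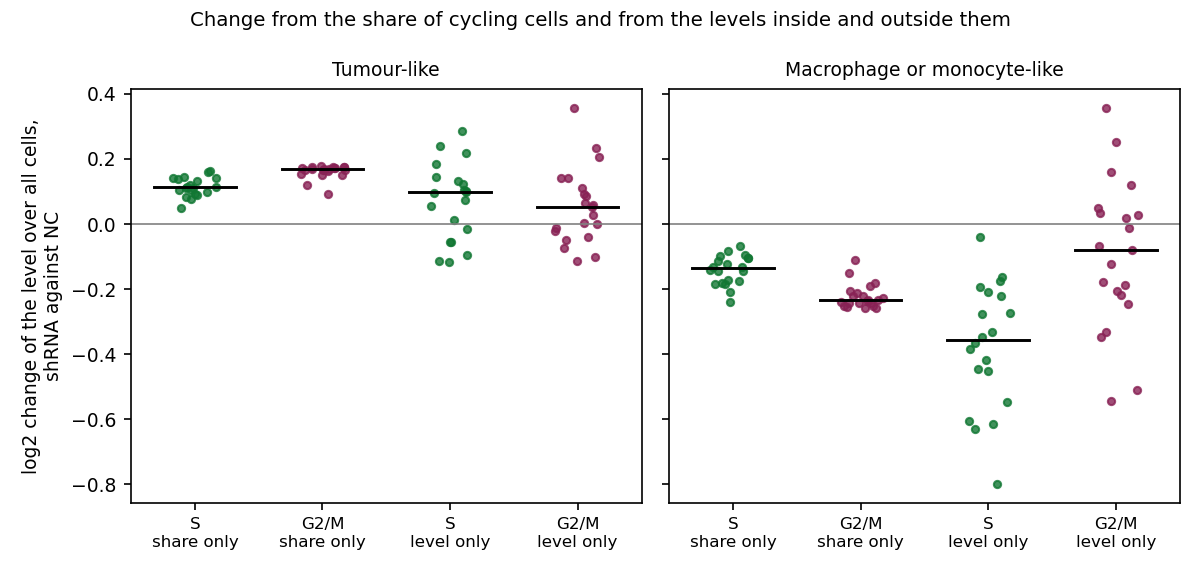
log2 change over all cells (vertical axis) of 41 members when only the share of UMIs in cycling cells differed (left pair in each panel) or only the levels inside and outside those cells (right pair), for S (green) and G2 and M (purple) members; black lines are medians. In macrophages the S members lie lowest in the level-only column, with a median of -0.36, and the G2 and M members spread around -0.08. Cycling cells were defined by G2 and M genes only, so the split does not treat the phases alike.

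Within cycling cells no member passed the test. In cycling tumour-like cells, 1641 to 3202 per library by the limit on all UMIs, edgeR called 0 of 41 members, against 0.504% of 13496 genes; 31 changes were above 0 (50.8% of all genes), 7 had an unadjusted p under 0.05 (9.76%), and DESeq2 called 0. The median was 0.12 and the sum over the 41 was 2722 and 2676 CPM in NC and 2856 and 2669 CPM in shRNA, which overlap. The ends of the range were Gtse1, at 12.9 and 11.5 against 15.6 and 15.95 CPM (log2 change 0.41), and Mcm4, at 34.0 and 36.0 against 33.6 and 30.3 CPM (-0.08). In non-cycling tumour-like cells edgeR called 0 of 41 (0.453% of all genes), 2 had an unadjusted p under 0.05 (10.5%), DESeq2 called 0, and the median was 0.08. The median in cycling tumour-like cells was 0.065 with 3 UMIs as the limit, 0.058 with cycling cells chosen after thinning, 0.070 without shRNA 1 and 0.18 without shRNA 2. Without shRNA 2, 1 member was called there, and without shRNA 1 there was 1 call in non-cycling ones.

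In cycling macrophages, 222 to 746 per library, edgeR called 0 of 41 members against 0.192% of 10391 genes; 29 changes were below 0 (49.7% of all genes), 12 had an unadjusted p under 0.05 (8%), and DESeq2 called 0. The S members had 19 of 20 changes below 0 and a median of -0.25, and the G2 and M members 10 of 21 below 0 and a median of 0.02. Rrm2 stood at 60.7 and 65.1 CPM in NC and 45.1 and 35.2 CPM in shRNA cycling macrophages (log2 change -0.60, SE 0.17, edgeR adjusted p = 0.28). Hells stood at 52.9 and 52.2 against 36.1 and 31.0 CPM (-0.59, SE 0.17, edgeR adjusted p = 0.28), and Dtl at 14.4 and 14.6 against 8.49 and 8.69 CPM (-0.70, SE 0.26, edgeR adjusted p = 0.486). The groups were apart for all 3 genes although no change passed the test; both shRNA libraries lay below both NC libraries in 23 of the 41 members (25.3% of all genes) and above in 3 (13.2%). E2f8 was apart too, at 38.1 and 36.6 against 21.8 and 25.2 CPM. Aurka was apart in the other direction, at 31.3 and 37.2 against 49.9 and 40.96 CPM (0.46, SE 0.18, edgeR adjusted p = 0.505), as were Ccnb1 at 43.0 and 48.0 against 57.3 and 48.8 CPM and Ccnb2 at 82.5 and 92.6 against 96.1 and 98.0 CPM. Cks2 overlapped, at 111 and 137 against 129 and 122 CPM. The median over the 41 members was -0.29 without shRNA 1 and -0.03 without shRNA 2.

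The balance between the phases was measured as the percentage of the 41 members' UMIs that came from the 20 S members in cycling cells. In macrophages it was 40.2% and 38.5% in NC and 33.3% and 35.3% in shRNA, means of 39.4% ± 1.20 and 34.3% ± 1.448 (SD, n = 2 each; exact permutation p = 0.33). Both shRNA libraries lay below both NC libraries, and they did so too when doublets were kept, with 3 UMIs as the limit and with cycling cells chosen after thinning (34.0% and 32.4% against 31.0% and 27.5%). In tumour-like cells it was 37.9% and 37.4% against 38.3% and 37.4% (exact permutation p = 0.667, n = 2 each), which overlap. With tumour-like cells chosen after thinning it was 30.6% and 31.2% against 32.7% and 31.8%, so the groups were then apart (exact permutation p = 0.33, n = 2 each), and the difference between the means went from 0.18 to 1.35 percentage points. In T cells it was 49.8% and 51.4% against 47.0% and 48.9% (exact permutation p = 0.33, n = 2 each). With T cells chosen after thinning the difference between the group means went from -2.63 to -0.06 percentage points.

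Levels were also summed by phase. In cycling macrophages the S members summed to 1083 and 1184 CPM in NC and 894 and 868 CPM in shRNA, and the G2 and M members to 1608 and 1888 CPM against 1794 and 1591 CPM; the first do not overlap and the second do. In non-cycling macrophages the S members summed to 269 and 297 CPM against 228 and 225 CPM, and the G2 and M members to 139 and 146 against 127 and 125 CPM. In non-cycling tumour-like cells the S members summed to 287 and 303 against 295 and 298 CPM, which overlap, and the G2 and M members to 146 and 161 against 163 and 170.0 CPM, which do not. After thinning to 2000 UMIs, 13.6% and 14.7% of the non-cycling macrophages in NC had 2 or more S-member UMIs, against 9.74% and 9.99% in shRNA. In tumour-like cells those shares were 19.2% and 17.95% against 21.2% and 20.2%. For 2 or more UMIs of G2 and M members the shares were 7.14% and 8.62% against 6.84% and 5.68% in macrophages and 12.6% and 11.6% against 14.7% and 14.4% in tumour-like cells. For both phases these shares were apart in both classes, higher in shRNA among tumour-like cells and lower among macrophages.

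T cells showed no common direction over all cells. Of 44 members tested 18 changes were above 0 (50.3% of 8141 genes), edgeR called 0 (0.59% of all genes), DESeq2 called 0, and 2 had an unadjusted p under 0.05 (7.85%), namely Cks2 and Ccnb2. Cks2 stood at 86.0 and 76.5 against 108 and 109 CPM and Ccnb2 at 39.1 and 26.9 against 41.3 and 55.7 CPM. Top2a, by contrast, stood at 175 and 160.2 against 157 and 186 CPM, and Rrm2 at 64.5 and 62.4 against 34.7 and 65.2 CPM. Both overlapped. Levels within cycling T cells were not tested, since a library held as few as 33 such cells. Summed there, S members stood at 2508 and 2564 CPM in NC and 1940 and 2358 CPM in shRNA, lower as in cycling macrophages. The G2 and M members summed to 2527 and 2427 against 2186 and 2462 CPM, which overlap. The S sums of non-cycling T cells overlapped. After thinning, 33.3% and 31.6% of non-cycling T cells in NC had 2 or more S-member UMIs, against 28.5% and 27.9% in shRNA. For G2 and M members the shares were 13.7% and 8.77% against 11.6% and 10.95%, which overlap. Of T cells with Cd8a or Cd8b1 UMIs and no Cd4, 17.0% and 19.4% in NC and 17.6% and 19.4% in shRNA were cycling on all UMIs.

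Of 125 further cell cycle genes in 4 lists, also chosen with earlier results of these data known, 123 were tested in the 2 large classes. In tumour-like cells 120 of 123 were above 0 (51% of all genes) and edgeR called 0 (0.389%). There 42 had an unadjusted p under 0.05 (12.4%), and the median was 0.21 (0.0049 over all genes). In macrophages 110 of 123 were below 0 (49.2% of all genes) and edgeR called 0 (0.176%). There 43 had an unadjusted p under 0.05 (9.74%), and the median was -0.27 (0.0045 over all genes). The class difference was called for 24 of 123, all negative (0.711% of all genes were called negative), with a median of -0.44: 10 of 47 further replication genes, 6 of 22 kinetochore and checkpoint genes, 4 of 30 spindle, condensin and cytokinesis genes and 4 of 24 genes of mitotic entry and exit. In cycling macrophages the median was -0.28 over the further replication genes, with 41 of 47 below 0 (49.7% of all genes). Over the other 3 lists it was -0.02, -0.04 and -0.06.

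Free RNA from tumour cells can enter a macrophage droplet. The 12 tumour markers stood in macrophages at 5.90% and 5.19% of their level in tumour-like cells in NC and at 6.72% and 6.38% in shRNA. If members were carried over at the same rate, a median of 8.54% and 5.99% of a member's macrophage level in NC, and 13.8% and 11.7% in shRNA, would be matched by tumour RNA. In cycling macrophages the matched median was 2.06% to 4.86%, and in non-cycling macrophages 25.6% to 52.9%. This amount was higher in the shRNA libraries, where the members' macrophage levels were lower, and its part in the results was not tested.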

How the data were processed

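Single-cell libraries were made from digested tumours with DNBelab C droplets. The authors deposited 1 matrix of UMI counts per library (counts of molecules per gene and cell), made with PISA 1.0, per the file headers; STAR 2.5.1b and the builds GRCh38 and mm10 stand in the submitters' processing notes. The annotation, strand setting and cell calling were recorded as not given in the sources used here. Reads of overlapping or antisense genes cannot be told apart.

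Cells needed 300 or more genes and no more than 20% of UMIs from mitochondrial genes. Scrublet's own threshold marked 0.766%, 1.51%, 0% and 0% of the cells and was set aside, and the 6% of each library with the highest scores were left out. Cells were clustered with scanpy 1.11.5 and python-igraph 0.11.9 (2000 variable genes without cell cycle genes, 30 components, 15 neighbours, Leiden resolution 1) and classes were named from marker lists. Trac, Trbc1 and Trbc2 matched no symbol in the matrices. UMIs were summed per library and class, and tested with edgeR 4.0.16 (filterByExpr, TMM, robust quasi-likelihood, R 4.3.3, Benjamini-Hochberg over all genes), with DESeq2 1.42.0 as an alternative. A change was called at an adjusted p of 0.05. The fitted log2 changes lay 0.03 to 0.07 above those of plain CPM. The difference between classes was fitted over both classes with a term for each library. Shares, intervals and permutation tests were computed with scipy 1.17.1.

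Members are given by role. Values of every library are given for the 4 defining genes, for members called in any test, for the 3 best counted members of each role and for the extremes of a fit. The members and lists were chosen with earlier results of these data known, and the limits for naming classes were set after seeing the data. On simulated counts, the edgeR steps recovered 72.4% of genes changed 2-fold and 36.4% of those changed 1.5-fold among 14444 genes of all tumour-like cells, 68.4% and 29.9% among 12320 genes of all macrophages, and 81.2% and 51.0% among 13307 genes of cycling tumour-like cells. In the same order, 14, 16 and 17 genes simulated without a change were called. No change smaller than 1.5-fold was simulated. The members' median log2 changes were smaller in size, at 0.27 in all tumour-like cells, -0.34 in all macrophages and 0.12 in cycling tumour-like cells. Recovery at changes of that size was not measured. Same-numbered libraries did not deviate together (correlations of -0.103 in tumour-like cells, 0.0523 in macrophages and -0.00695 in T cells), so numbers were not used as pairs. Depth was 83513906 to 119758159 UMIs per library.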

Additional observations from a re-analysis of the deposited data

Results flagged for a closer look

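The change from NC to shRNA differed between macrophages and tumour-like cells, by an edgeR test of the difference itself, for 25 of the 45 members, where 3.04% of all 15180 genes were called. On the log2 scale, macrophages minus tumour-like cells, the differences of the licensing and helicase genes were -0.60 for Mcm2, -0.61 for Mcm3, -0.73 for Mcm5, -0.47 for Mcm6, -0.60 for Mcm7, -0.56 for Gins2 and -0.62 for Gmnn. Those of the fork, nucleotide and S-phase control genes were -0.47 for Pcna, -0.52 for Rrm1, -1.14 for Rrm2, -0.83 for Tyms, -1.28 for Dtl, -0.79 for Hells and -1.15 for E2f8. Those of the kinases and degradation factors were -0.50 for Cdk1, -0.72 for Aurkb, -0.93 for Pbk and -0.80 for Fbxo5. Those of the chromosome, spindle and cytokinesis genes were -0.84 for Top2a, -0.63 for Mki67, -0.57 for Prc1, -0.84 for Nusap1, -0.68 for Lbr, -0.61 for Anln and -0.67 for Kif11. The count went from 25 to 7 without NC 2.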

How the results depend on the processing

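Unless stated, values are log2 ratios or changes from NC to shRNA. Counts of members called with DESeq2, another setting or 1 library left out are given without the share of all genes called there. They therefore cannot tell a rise particular to the members from a rise over all genes. The cycling share of tumour-like cells, 0.41, was 0.23 with 1 UMI as the limit, and 0.30 to 0.52 with 1 library left out. That of macrophages, -0.52, was -0.79 and -0.29 after thinning to 1000 and 4000 UMIs and -0.30 with 1 UMI, and -0.68 to -0.34 with 1 library left out. That of T cells, 0.10, was -0.087 with 1 UMI, -0.11 with cells chosen by marker UMIs, and -0.16 to 0.33 with 1 library left out. Members called over all cells, 0 in both large classes, were in tumour-like cells 10 with no filter, 3 with DESeq2, 1 after thinning and 0 to 13 with 1 library left out, and in macrophages 15, 1, 1 and 0 to 11. With the replicate block 4 members were called in macrophages and 0 in tumour-like and T cells; since the numbers share no origin in the labels, no pairing is read from this, and crossed numbers, tried after seeing the data, gave 0 calls in each class. The T cell median, -0.03, was -0.23 with cells chosen by marker UMIs and -0.033 to 0.085 with 1 library left out.

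In cycling cells, no filter gave 2 called members in tumour-like cells and 2 in macrophages. With 1 library left out the calls in cycling tumour-like cells were 0 to 1, and in non-cycling ones 0 to 1. The median in cycling tumour-like cells, 0.12, was 0.065 with 3 UMIs, 0.058 with cells chosen after thinning and 0.070 to 0.18 with 1 library left out. That in cycling macrophages, -0.19, was -0.090 with cells chosen after thinning and -0.29 to -0.027 with 1 library left out. The 25 called class differences were 24 with RLE factors, 30 with no filter, 25 with doublets kept, 24 with cycle genes used for clustering, 20 with cells chosen by marker UMIs and 7 to 31 with 1 library left out. The S share of member UMIs in tumour-like cells differed by 0.18 points, by -0.048 with doublets kept, 1.35 after thinning and -0.24 to 0.59 with 1 library left out. In T cells it differed by -2.63 points, by -4.30 with doublets kept, -0.13 with 3 UMIs and -0.056 after thinning. In macrophages it stayed between -6.14 and -4.09 with 1 library left out. The cause of these shifts was not tested.

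Of 750 alternative values for single genes, 642 kept direction and side of the threshold and 21 changed sign, 20 of them with 1 library left out. Over those 4 fits the range was, in all tumour-like cells, Mcm4 (-0.063 to 0.13), Mcm6 (-0.024 to 0.17), Mcm7 (-0.0083 to 0.19), Slbp (-0.050 to 0.028), Pbk (-0.080 to 0.56) and Ube2c (-0.050 to 0.26). In all macrophages it was Cdk1 (-0.21 to 0.094), Aurka (-0.0014 to 0.37), Cks2 (-0.013 to 0.23), Birc5 (-0.24 to 0.035), Prc1 (-0.30 to 0.025) and Gtse1 (-0.50 to 0.11). In cycling tumour-like cells it was Mcm7 (-0.085 to 0.018), Mcm6 (-0.077 to 0.021) and Hells (-0.077 to 0.17). With no filter Slbp was 0.0076. The small classes limit their own shares, with 7 to 42 neutrophil-like cells per library before the 2000 UMI limit and 27 to 77 dendritic-like cells after it, and 2 libraries a group cannot give an exact p below 0.33.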

Other observations

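Dendritic-like cells were few and varied between libraries of a group. After thinning to 2000 UMIs, 1 of 34 (2.94%) and 12 of 50 (24%) were cycling in NC 1 and NC 2, and 0 of 27 and 7 of 77 (9.09%) in shRNA 1 and shRNA 2. Among T- and NK-like cells on all their UMIs, cells with Ncr1 or Klrb1c and no Cd3 UMIs, which are markers of NK cells, were cycling in 10.7% and 12.1% of cases in NC and in 3.41% and 17.5% in shRNA. Those with Cd4 UMIs and neither Cd8a nor Cd8b1 were cycling in 4 of 31 and 0 of 18 cells in NC and in 6 of 46 and 2 of 56 cells in shRNA. In neutrophil-like cells, all 45 members together had 31, 19, 6 and 6 UMIs per library, which is 518, 696, 396 and 664 CPM. The sum was 1833 to 2405 CPM in tumour-like cells and 1985 to 2281 CPM in T- and NK-like cells. In macrophages it was lower, at 1355, 1543, 1129 and 1082 CPM, and thus nearer to the neutrophil-like level. The part of such background in the macrophage results was not tested.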
